A study of Saccharomyces cerevisiae with 24 samples.

Results

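The early transcript response of wild-type budding yeast to a move from rich to minimal lactate medium was measured by RNA sequencing, as 2 WT libraries taken after 1 h in the minimal medium SL set against 2 WT libraries taken at 0 h in the rich medium YPL. These 4 libraries were chosen by their labels from 24 libraries of 4 genotypes of Saccharomyces cerevisiae strain CEN.PK, all sampled at 0 h, 1 h and 3 h. The 1 h cells were WT, had grown to log phase in YPL, were washed with SL and were then cultured in SL. The 0 h cells were WT cells in log phase in YPL, labelled as untreated, and no further allele or agent is labelled for either group. The wash and the new medium came together, so their parts cannot be told apart. Every library of the comparison held between 6659950 and 7627914 counts, and 6503 of 7126 genes passed the filter on low values and were tested. The labels do not say whether the replicates came from separate cultures, so p-values measure only the spread between replicate libraries. That spread was estimated over all 24 libraries of the series. RPH1 (40.1 and 41.6 FPKM after 1 h, against 19.5 and 19.3 FPKM at 0 h) and SET2 (15.1 and 19.0 FPKM after 1 h, against 26.8 and 25.1 FPKM at 0 h), the genes deleted in other genotypes of the series, were present in every WT library.

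When yeast loses external amino acids it must reduce sulfate to make its own methionine and cysteine, a route switched on by the activator Met4 with its DNA-binding partners Cbf1, Met31 and Met32. A loss of nutrients also lowers the activity of the growth kinases TORC1 and protein kinase A. The activators Msn2 and Msn4 then drive the general stress genes, and the genes for ribosomal proteins and for ribosome assembly are repressed through Sfp1, Ifh1, Crf1, Dot6, Tod6 and Stb3. Lactate is oxidised by the cytochrome b2 and D-lactate dehydrogenases of mitochondria, so both media require respiration.

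After 1 h in SL, 2425 genes were called higher than at 0 h (37.3% of those tested) and 2262 were called lower (34.8%), by the edgeR quasi-likelihood test with a Benjamini-Hochberg adjusted p under 0.05. At least 2-fold changes were found for 1155 higher genes (17.8%) and 1320 lower genes (20.3%), and changes of at least 16-fold for 93 higher and 191 lower genes. The median log2 fold change over all genes tested was 0.06. With most genes called, a count of called members in a gene list has to be read against these shares. All fold changes below are log2 values of 1 h over 0 h with their SE, and all levels are FPKM (counts scaled by gene length and by the library's total) given for library 1 and then library 2 of a group. Libraries were scaled to each other by their bulk of genes, and no added RNA standard is labelled, so a transcript that became more or less frequent in a cell cannot be told apart from one whose share moved as other transcripts changed.

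**Figure D1:**
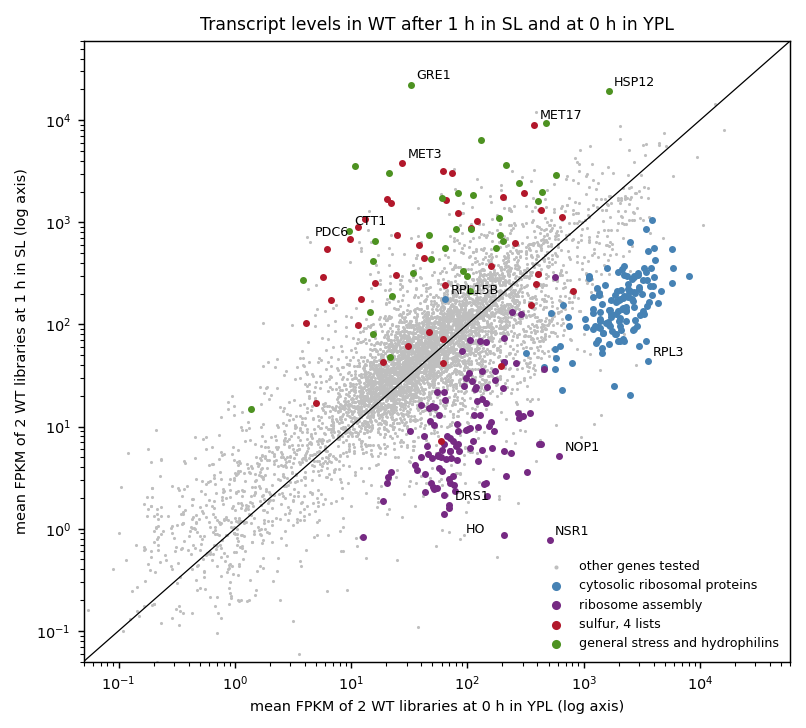
Mean FPKM of the 2 WT libraries at 1 h in SL (vertical, log axis) against the mean of the 2 WT libraries at 0 h in YPL (horizontal, log axis) for the genes tested, with the line of equal levels; 352 genes with a mean under 0.05 FPKM in either group are not drawn. Genes of the 4 sulfur lists (red) and of the stress lists (green) lie mostly above the line, and genes for ribosomal proteins (blue) and ribosome assembly (purple) lie below it, with RPL15B above it.

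The make-up of the libraries moved with these changes. Genes for cytosolic ribosomal proteins took 1.11% and 1.08% of all counts after 1 h, against 15.2% and 14.6% at 0 h. The 4 sulfur lists together took 6.62% and 6.44% of counts after 1 h, against 0.758% and 0.771% at 0 h. A single gene, GRE1, which encodes a hydrophilin (a small, very hydrophilic protein linked to water stress), took 1.11% and 1.15% of counts after 1 h, against 0.00183% and 0.00148% at 0 h. For all 3 shares the libraries of the groups lay far apart, and with 2 libraries against 2 an exact permutation test could not give a two-sided p below 0.333.

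Sulfur genes rose together. All 10 genes of sulfate uptake, activation and reduction rose, with a median of 4.69 and a range from 2.99 to 7.01. MET3, which encodes ATP sulfurylase, the enzyme that activates sulfate, stood at 3843 and 3733 FPKM after 1 h, against 28.5 and 26.2 FPKM at 0 h, a change of 7.01 ± 0.11 (adjusted p = 1.8e-25). MET14, the APS kinase gene of the following step, reached 3104 and 2988 FPKM after 1 h, against 78.3 and 70.1 FPKM at 0 h. MET16, for PAPS reductase, stood at 1550.0 and 1553 FPKM after 1 h, against 20.2 and 23.7 FPKM at 0 h. In each of these genes both 1 h libraries lay far above both 0 h libraries, and the replicates lay close together. MET5 (4.81 ± 0.11) and MET10 (6.26 ± 0.10), for the subunits of sulfite reductase, and MET1 (3.31 ± 0.11) and MET8 (3.55 ± 0.12), for its siroheme cofactor, rose as well. Of the sulfate permease genes, SUL1 was the more abundant at 1256 and 1214 FPKM after 1 h, against 78.2 and 87.2 FPKM at 0 h, while SUL2 rose further from a lower level, to 107 and 100.5 FPKM after 1 h, against 3.92 and 4.19 FPKM at 0 h. MET22, which clears the phosphoadenosine phosphate left over from reduction, had the smallest change of the list at 2.99 ± 0.09.

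In the methionine and SAM cycle, which makes methionine and passes its methyl group on, 7 of 12 genes rose and 4 fell. MET17, whose enzyme joins sulfide to O-acetylhomoserine, was among the most abundant transcripts after 1 h, at 9264 and 8869 FPKM, against 379 and 369 FPKM at 0 h. MET6, the methionine synthase gene, stood at 3222 and 3139 FPKM after 1 h, against 60.1 and 62.9 FPKM at 0 h, a change of 5.59 ± 0.13. MET2, for homoserine acetyltransferase, changed by 6.02 ± 0.10. MET17 and MET2 each overlap another gene, and without strand information their reads cannot be fully told apart from it. SAM2 (2.58 ± 0.07) rose further than its near-identical partner SAM1 (1.18 ± 0.08), both for S-adenosylmethionine synthetase, although reads shared by the pair make their separate levels uncertain. SAH1, whose enzyme removes the S-adenosylhomocysteine left by methylation, fell by 2.01 to 218 and 211 FPKM after 1 h, against 785 and 826 FPKM at 0 h. SAM4 fell by 2.41, whereas MHT1, for the other homocysteine methyltransferase, rose by 1.82 ± 0.11.

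Transsulfuration, which moves sulfur between homocysteine and cysteine, was called higher for 6 of 8 genes counted with the homoserine branch. STR3, for cystathionine beta-lyase on the way to homocysteine, changed most, with 555 and 543 FPKM after 1 h, against 6.80 and 5.70 FPKM at 0 h. CYS3 (cystathionine gamma-lyase) rose by 3.03 ± 0.09 and CYS4 (cystathionine beta-synthase) by 0.72 ± 0.09. In the branch that supplies homoserine, HOM3 and HOM6 rose by 1.13 ± 0.08 and 1.54 ± 0.07, while HOM2 fell by 1.28. IRC7, for a cysteine-degrading lyase, fell by 3.14, and it overlaps another gene.

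Genes that bring in or release organic sulfur rose almost without exception: 12 of 13 were called higher, with a median of 3.89. AGP3, for a permease of broad range, changed by 6.28 ± 0.13 and stood at 1076 and 1105 FPKM after 1 h, against 15.2 and 10.9 FPKM at 0 h. BDS1, which encodes a sulfatase that frees sulfate from alkyl sulfates, stood at 899.9 and 892 FPKM after 1 h, against 11.6 and 11.2 FPKM at 0 h. JLP1, for the dioxygenase that frees sulfite from sulfonates, rose by 4.59 ± 0.16. The permeases for methionine (MUP1, 2.96 ± 0.10, and MUP3, 5.55 ± 0.11), S-methylmethionine (MMP1, 4.54 ± 0.08) and S-adenosylmethionine (SAM3, 3.9 ± 0.09) rose, as did YCT1 for cysteine (3.00 ± 0.15). In glutathione breakdown DUG3 rose by 3.89 ± 0.10 and DUG2 by 0.90 ± 0.09, and DUG1 fell by 0.74. SEO1 of the same list was left out by the filter on low values.

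**Figure D2:**
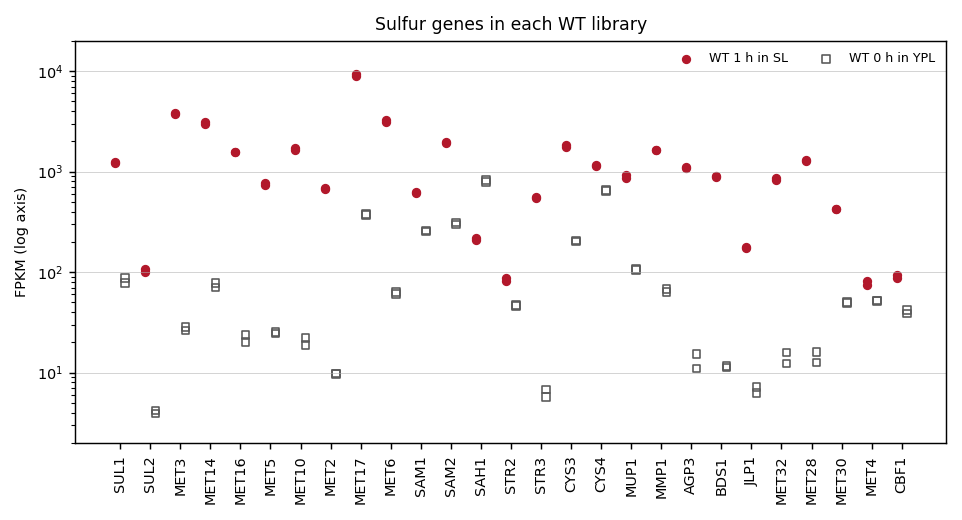
FPKM (log axis) of 27 genes of sulfur uptake, reduction, methionine and cysteine synthesis and their regulators in each WT library at 1 h in SL (filled circles) and at 0 h in YPL (open squares). MET3 reached 3843 and 3733 FPKM after 1 h, against 28.5 and 26.2 FPKM at 0 h, and SAH1 is the gene with lower values after 1 h.

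The regulators of this route changed unequally. MET32 rose by 5.81 ± 0.15 and MET28, for a bridging cofactor that overlaps another gene, by 6.37 ± 0.13. MET31, the paralog of MET32, had 29.5 and 29.2 FPKM after 1 h, against 33.2 and 33.0 FPKM at 0 h, and was not called (adjusted p = 0.18). MET4 itself rose by 0.48 ± 0.09 and CBF1 by 1.06 ± 0.11. MET30, whose product marks Met4 with ubiquitin and so restrains it, rose by 2.99 ± 0.08, to 423 and 426 FPKM after 1 h, against 50.5 and 48.9 FPKM at 0 h.

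The promoters of the sulfur genes are shown because the letters bound by Cbf1 and by Met31 and Met32 stand in them. The Cbf1 core CACGTG, which reads the same on both strands, was found within 500 bases before the start codon in 9 of 10 genes of sulfate uptake and reduction (90%), in 1 of 13 organic sulfur genes (7.69%) and in 6.21% of the 5762 protein-coding genes searched. From 250 bases before to 50 after the start codon, the window set first, the Cbf1 core was found in 5 of 10 sulfate genes, in 0 of 13 organic sulfur genes and in 2.95% of all genes. The Met31 and Met32 motif TGTGGC, on either strand, was found in 7 of 10 sulfate genes (70.0%), in all 13 organic sulfur genes tested and in 14.4% of all genes searched within 500 bases, and in 4 of 10, 9 of 13 and 7.95% in the shorter window. The 500-base window was chosen after values were seen. The MET3 window below (sacCer3, chrX:455739-456038, plus strand, from 500 to 201 bases before the start codon) holds CACGTG at 377 and at 360 bases and GCCACA, the other strand of TGTGGC, at 254 bases. The AGP3 window (sacCer3, chrVI:16504-16803, plus strand, the same distances) holds no Cbf1 core, and it holds TGTGGC at 259 bases and GCCACA at 216 bases. The windows were read from the RefSeq reference of strain S288C. Capitals mark these matches, which are a description of letters and not of binding.
MET3: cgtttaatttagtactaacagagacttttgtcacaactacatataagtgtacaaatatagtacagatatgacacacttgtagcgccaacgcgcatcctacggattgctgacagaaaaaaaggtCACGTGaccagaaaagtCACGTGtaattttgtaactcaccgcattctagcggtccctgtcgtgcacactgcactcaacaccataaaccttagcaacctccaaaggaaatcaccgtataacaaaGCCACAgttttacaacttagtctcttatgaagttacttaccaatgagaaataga
AGP3: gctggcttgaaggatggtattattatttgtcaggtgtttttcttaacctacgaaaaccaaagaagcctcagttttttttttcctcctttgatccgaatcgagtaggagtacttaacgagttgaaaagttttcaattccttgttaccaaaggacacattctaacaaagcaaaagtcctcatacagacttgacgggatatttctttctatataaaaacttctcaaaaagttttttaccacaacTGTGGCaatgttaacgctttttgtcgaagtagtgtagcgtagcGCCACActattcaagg

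A further group of genes differed in the sulfur that their own products contain. PDC6, a minor pyruvate decarboxylase gene on chromosome VII, had 654 and 643 FPKM after 1 h, against 4.20 and 4.62 FPKM at 0 h, a change of 7.10 ± 0.14. PDC1, the main isozyme gene, fell by 3.03 to 188 and 191 FPKM after 1 h, against 1452 and 1429.6 FPKM at 0 h. Their coding sequences have equal length, and in PDC6 6 of 563 codons are for methionine or cysteine (1.07%), against 3.02% in PDC1 and 3.2% in PDC5, which had 15.4 and 13.1 FPKM after 1 h, against 9.65 and 10.4 FPKM at 0 h and was not called. Other pairs, chosen after values were seen, had no common direction. ENO1, with 1.60% of such codons, rose by 2.0 ± 0.11, and ENO2, with 2.52%, fell by 1.17, although near-identical sequence makes the split of their reads uncertain. GRE1 and MET17 had low shares (0.595% and 0.676%), but SPG1 had 9.47% and SIP18 13.9%, and both rose. In 2 pairs the gene that rose had the larger share: TKL2 (2.20%) rose by 5.32 and TKL1 (1.91%) fell by 2.51, and PGM2 (2.46%) rose by 3.07 while PGM1 (2.11%) was not called. SSA3 (1.69%) and SSA1 (1.71%) had near-equal shares and both rose, by 3.91 and 1.92. HXK2 fell by 4.30 and HXK1 was not called, with shares of 3.50% and 3.51%. Across all genes the medians lay close together. At the 2-fold threshold the set that rose had the higher median, 3.47% over 1058 protein-coding genes. The median was 3.14% over the 1278 at least 2-fold lower and 3.35% over the 5762 searched. Without the cytosolic ribosomal protein genes these medians were 3.47%, 3.25% and 3.38%. At the 16-fold threshold both medians lay below that of all genes searched. They were 3.06% over the 76 higher genes and 2.79% over the 179 lower genes.

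Stress and starvation genes formed the other large group that rose. All 27 genes of the general stress list were called higher, 26 of them by at least 2-fold, with a median of 3.06. CTT1, the cytosolic catalase gene, changed by 6.33 ± 0.15 and stood at 836 and 827 FPKM after 1 h, against 10.3 and 8.93 FPKM at 0 h. HSP12, for a membrane-stabilising small protein, reached 19951 and 18666 FPKM after 1 h, against 1882 and 1391 FPKM at 0 h, and DDR2 reached 9223 and 9508 FPKM after 1 h, against 524 and 419.9 FPKM at 0 h. These levels put HSP12 and DDR2 among the most abundant transcripts of the 1 h libraries. FMP16 (5.53 ± 0.12), for a mitochondrial protein, changed nearly as much as CTT1. The smallest change of the list was that of PIC2, a mitochondrial carrier gene, at 0.91 ± 0.09.

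All 9 hydrophilin and stationary phase genes rose. GRE1 had the largest change of the list, 9.31 ± 0.12 (adjusted p = 6.3e-27), with 21923 and 22729 FPKM after 1 h, against 36.1 and 29.2 FPKM at 0 h. SPG1 (3452 and 3671 FPKM after 1 h, against 9.86 and 11.8 FPKM at 0 h) and SPG4 (2897 and 3127 FPKM after 1 h, against 19.2 and 22.9 FPKM at 0 h), both linked to survival in stationary phase, followed it. SIP18, the closest relative of GRE1, rose less, by 3.32 ± 0.14. STF2, for another hydrophilin, rose by 2.07 ± 0.12.

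Most chaperone genes rose. Of 24 heat shock chaperone genes, 19 rose and 4 fell. The small heat shock protein genes HSP26 (12359 and 11941 FPKM after 1 h, against 415 and 366 FPKM at 0 h) and HSP42 (5.09 ± 0.10) rose most, followed by SSA4 (4.01 ± 0.10) and SSA3 (3.91 ± 0.10) of the cytosolic Hsp70 family. The constitutive partner SSA2 rose by only 0.25 ± 0.08, HSP82 by 1.74 ± 0.08 and its constitutive copy HSC82 by 0.66 ± 0.08. The mitochondrial folding genes SSC1, HSP60 and HSP10 fell by 2.67, 2.27 and 1.45. Of 12 folding genes of the endoplasmic reticulum 5 were called lower, 2 of them by at least 2-fold, a share near that over all genes. JEM1, for a J-domain cochaperone, fell by 1.38 and HAC1, for the activator of the unfolded protein response, by 1.16, while KAR2, the Hsp70 gene of that compartment, was the single gene called higher (0.62 ± 0.07).

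Storage carbohydrate genes rose on the side of synthesis and on that of breakdown. All 7 trehalose genes were called higher, among them TPS2 (2.84 ± 0.10) and TSL1 (3.26 ± 0.12) of the synthase complex and the trehalase genes NTH1 (2.10 ± 0.07) and ATH1 (2.34 ± 0.08). For glycogen, 9 of 10 were called higher, including the synthase genes GSY1 (2.39 ± 0.12) and GSY2 (2.52 ± 0.07), the branching enzyme GLC3 (2.52 ± 0.09) and the phosphorylase GPH1 (1.49 ± 0.08). GAC1, for the phosphatase subunit that activates glycogen synthase, fell by 1.28. Among 24 antioxidant genes 14 rose and 7 fell, led by the peroxisomal catalase CTA1 (3.48 ± 0.08) and by GSH1 (3.09 ± 0.10), whose enzyme starts glutathione synthesis from cysteine.

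The signalling genes above these targets moved less. MSN2 rose by 0.68 ± 0.15, and MSN4 had 30.4 and 36.2 FPKM after 1 h, against 26.5 and 28.1 FPKM at 0 h, and was not called. YAK1, a kinase gene opposed to protein kinase A that overlaps another gene, rose by 2.63 ± 0.11. RAS1 fell by 2.06 and RAS2 by 0.84. Over 15 genes of TORC1 and its regulators 8 rose and 2 fell, none by 2-fold. The TORC1 subunit gene TCO89 (0.93 ± 0.11) changed most, and KOG1 fell by 0.57.

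The stress response element AGGGG, the site of Msn2 and Msn4, was searched on both strands. Within 500 bases before the start codon it was found in 26 of 27 general stress genes (96.3%), in 52.2% of the genes at least 2-fold higher, in 26.1% of those at least 2-fold lower and in 34.6% of all genes searched. In the shorter window from 250 bases before to 50 after the start codon the shares were 66.7%, 36.8%, 14% and 22.1% for these sets in the same order. The CTT1 window below (sacCer3, chrVII:654134-654433, plus strand, from 500 to 201 bases before the start codon) is shown because it holds 2 such elements close together, at 378 and 363 bases, in capitals.
CTT1: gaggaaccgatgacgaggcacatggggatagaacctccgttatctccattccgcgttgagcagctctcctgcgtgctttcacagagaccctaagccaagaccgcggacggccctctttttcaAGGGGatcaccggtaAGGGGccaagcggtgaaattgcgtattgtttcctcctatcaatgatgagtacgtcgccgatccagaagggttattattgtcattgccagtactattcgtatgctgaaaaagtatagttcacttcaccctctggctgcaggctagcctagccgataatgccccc

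Genes for self-digestion rose broadly. Of 35 autophagy genes 34 were called higher, 23 of them by at least 2-fold, with a median of 1.49. ATG34 (2.98 ± 0.09) and ATG39 (2.95 ± 0.14), for a receptor of vacuolar enzymes and a receptor of the nuclear envelope, and ATG7 (2.59 ± 0.12), for the activating enzyme of Atg8 conjugation, changed most. ATG10 was the exception, at 5.46 and 14.0 FPKM after 1 h, against 15.8 and 19.2 FPKM at 0 h, its 1 h libraries differed widely, and it was no longer called without the first 1 h library or without the second 0 h library. All 11 genes of the list of vacuolar proteases and hydrolases rose. They ranged from PBI2 (0.35 ± 0.09), which encodes an inhibitor of proteinase B, to AMS1 (2.93 ± 0.11). PRB1, the proteinase B gene of the vacuole, stood at 1685 and 1671 FPKM after 1 h, against 209.6 and 215 FPKM at 0 h. The proton pump that acidifies the same organelle stayed near its level: 5 of its 13 genes were called higher and 5 lower, with changes between -0.38 and 0.37. The proteasome rose as a whole but by little, with 28 of 33 genes called higher, a median of 0.54 and only RPN4, the activator of proteasome genes, past 2-fold (1.32 ± 0.10).

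**Figure D3:**
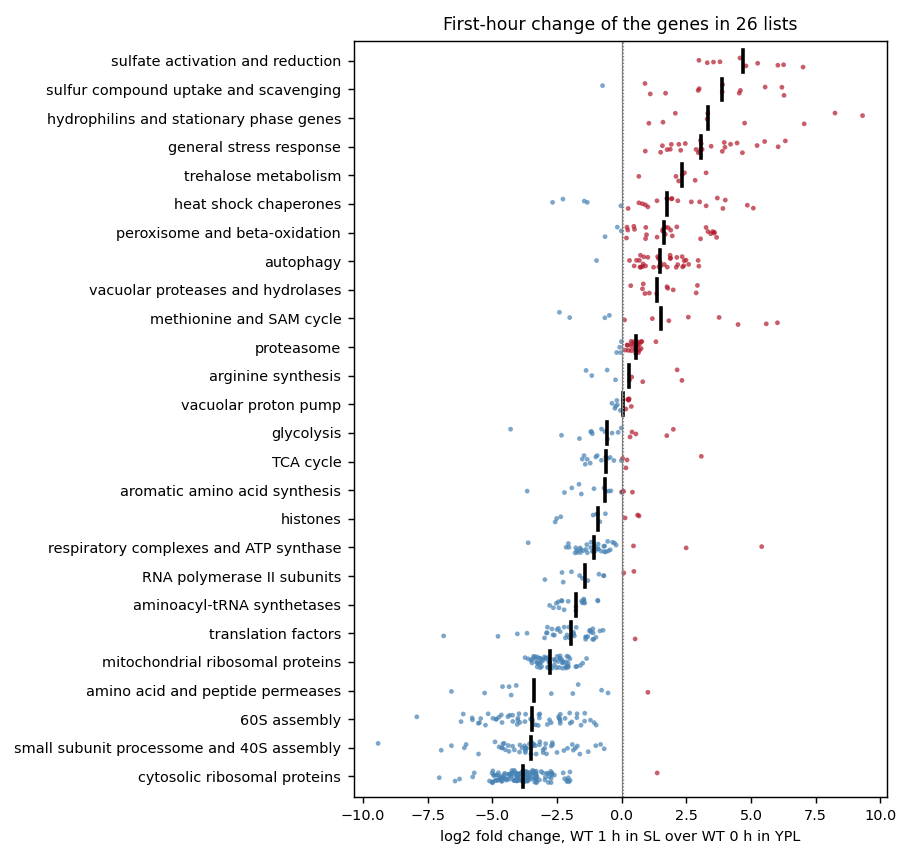
Log2 fold change (WT 1 h in SL over WT 0 h in YPL) of each gene in 26 lists, red above 0 and blue below, with the list median as a black bar and the median of all genes tested as a dotted line; genes with 3 or fewer counts in a group are not drawn. Medians run from 4.69 for sulfate activation and reduction to -3.80 for cytosolic ribosomal proteins.

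Ribosome genes made up the other side of the response. Of 137 genes for cytosolic ribosomal proteins, 136 were called lower, all by at least 2-fold, with a median of -3.80. The 40S and 60S proteins had like medians, of -3.80 over 56 RPS genes and -3.79 over 76 RPL genes. RPL3, for a core protein of the large subunit, fell to 47.4 and 39.6 FPKM after 1 h, against 3579 and 3505 FPKM at 0 h, a change of -6.44 ± 0.12 (adjusted p = 1.3e-24). RPL8A (-6.27 ± 0.10) and RPS26B (-7.06 ± 0.14) fell by amounts of the same order, and the smallest decreases were those of RPS30A (-2.0 ± 0.14) and RPL14B (-2.0 ± 0.09).

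Most ribosomal proteins are encoded by a pair of nearly identical genes, and some pairs were unequal. Over 59 pairs the median difference between the copies was 0.607 on the log2 scale, with 18 pairs at least 1 apart and 6 at least 2 apart. RPL15B was the only gene of the list called higher, with 175 and 181 FPKM after 1 h, against 72.3 and 55.7 FPKM at 0 h. Its partner RPL15A fell by 4.70 to 139 and 131 FPKM after 1 h, against 3379.8 and 3140.3 FPKM at 0 h, so the minor copy of the pair at 0 h was the more abundant after 1 h. RPS26B fell by 7.06 and RPS26A by 3.34, while RPL14A fell by 5.01 and RPL14B by 2.0. No source used here says how reads shared by such copies were counted, and these splits are uncertain.

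All 114 genes for ribosome assembly fell, 111 of them by at least 2-fold. NOP1, for fibrillarin, the methyltransferase of box C/D particles, fell to 5.73 and 4.58 FPKM after 1 h, against 622 and 602 FPKM at 0 h, a change of -6.98 ± 0.10 (adjusted p = 5.8e-26). NSR1, for nucleolin, had the largest decrease of its list, to 0.950 and 0.60 FPKM after 1 h, against 527 and 496 FPKM at 0 h (-9.42 ± 0.17), and it overlaps another gene. Among the 60S factors the RNA helicase genes DBP2 (-7.92 ± 0.23) and HAS1 (-6.21 ± 0.21, overlapping another gene) and MAK16 (-6.13 ± 0.19) fell most. DRS1, another helicase gene, had 1.68 and 1.73 FPKM after 1 h, against 71.2 and 68.6 FPKM at 0 h. The late 40S factors NOB1 and RIO2 fell by 0.68 and 0.82, the smallest changes of their list with RRP7 (by 1.00). The pseudouridine particle fell too, with CBF5 lower by 5.22.

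Of the polymerase I machinery 11 of 15 genes were lower, with RPA49 at 2.10 and 1.8 FPKM after 1 h, against 184 and 194 FPKM at 0 h, and RPA190 and RPA135, for the large subunits, lower by 4.18 and 4.22. RRN3, for the initiation factor whose activity follows growth, had a small change of -0.26 ± 0.11 whose call was lost with library totals as the scaling, and RRN10 of the upstream activator rose by 1.40 ± 0.14. In polymerase III 13 of 21 genes fell and 7 rose, among them its repressor MAF1 (0.84 ± 0.09). RPC40, whose subunit belongs to polymerases I and III, fell by 3.10.

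The genes that control this regulon moved in both directions. CRF1, for a corepressor of ribosomal protein genes, rose to 403 and 417 FPKM after 1 h, against 9.0 and 10.7 FPKM at 0 h, a change of 5.27 ± 0.11. IFH1, its competitor and an activator, fell by 1.56 and HMO1 by 1.34. TOD6, for a repressor that binds the PAC motif, fell to 2.58 and 3.24 FPKM after 1 h, against 61.4 and 53.4 FPKM at 0 h, whereas its paralog DOT6, at -0.35 ± 0.15, was called only under some of the settings tried. SFP1, at 0.21 ± 0.09, was likewise called only under some settings, and FHL1, RAP1 and STB3 were not called, with changes of -0.06 ± 0.14, 0.21 ± 0.10 and -0.21 ± 0.18.

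The PAC motif GATGAG, bound by Dot6 and Tod6, and the RRPE motif AAAATTTT, bound by Stb3, were searched on both strands from 250 bases before to 50 after the start codon. PAC was found in 52 of 57 small subunit processome and 40S assembly genes (91.2%), in 53 of 57 60S assembly genes (93.0%) and in 12 of 15 polymerase I genes (80%), against 19.9% of all genes searched. RRPE was found in 78.9%, 80.7% and 53.3% of the same lists, against 9.16% of all genes. Genes for ribosomal proteins, which fell as far, held PAC in 10.9% and RRPE in 6.57%, and mitochondrial ribosomal protein genes in 17.2% and 6.25%. The Rap1 letters ACCCATACA stood in 2 of 137 ribosomal protein genes (1.46%) in this window, against 0.38% of all genes. Within 500 bases before the start, a window chosen after values were seen, they stood in 17.5%, against 1.11% of all genes. The NOP1 window (sacCer3, chrIV:427114-427413, plus strand) and the DRS1 window (sacCer3, chrXII:131479-131778, plus strand), both from 250 bases before to 50 after the start codon, show the motif pair in capitals. NOP1 holds AAAATTTT at 225 bases and CTCATC, the other strand of GATGAG, at 204 bases before the start. DRS1 holds AAAATTTT at 137 bases and GATGAG in 2 overlapping copies at 119 and 114 bases.
NOP1: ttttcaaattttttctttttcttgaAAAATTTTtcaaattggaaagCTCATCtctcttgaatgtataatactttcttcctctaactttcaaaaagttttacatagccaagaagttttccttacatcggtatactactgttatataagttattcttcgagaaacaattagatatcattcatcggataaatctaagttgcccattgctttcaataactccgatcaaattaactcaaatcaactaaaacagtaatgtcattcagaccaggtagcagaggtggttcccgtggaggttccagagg
DRS1: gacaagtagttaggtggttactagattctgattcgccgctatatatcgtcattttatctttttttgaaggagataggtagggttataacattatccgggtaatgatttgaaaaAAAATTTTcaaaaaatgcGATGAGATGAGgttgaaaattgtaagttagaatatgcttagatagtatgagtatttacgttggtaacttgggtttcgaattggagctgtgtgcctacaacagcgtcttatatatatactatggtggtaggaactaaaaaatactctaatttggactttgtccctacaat

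**Figure D4:**
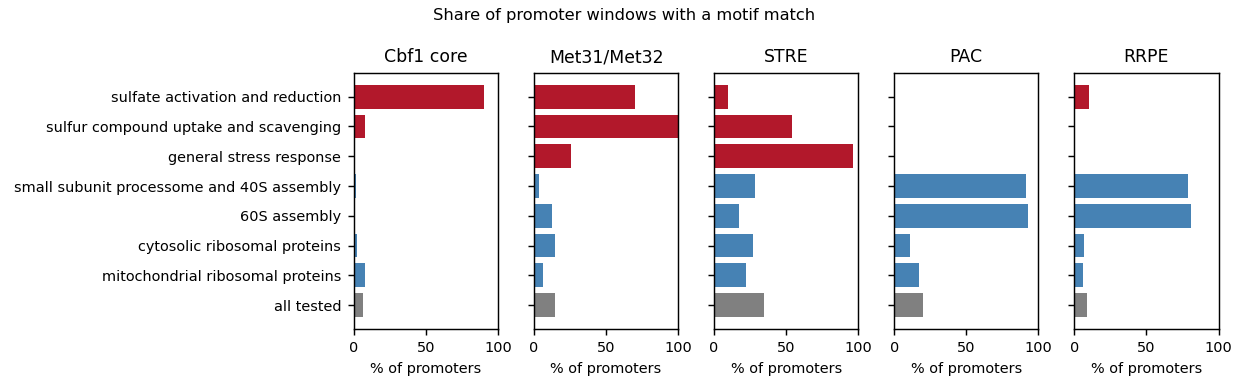
Share of promoter windows (percent) that hold each motif at least once on either strand, in 7 gene lists and in all genes searched (grey); lists that rose are red and lists that fell are blue. The Cbf1, Met31/Met32 and STRE panels use the 500 bases before the start codon, and the PAC and RRPE panels use 250 bases before to 50 after it, where PAC stood in 91.2% of small subunit processome and 40S assembly genes and in 19.9% of all genes.

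Translation genes fell with the ribosome. Of 39 translation factor genes 37 were called lower, with a median of -1.87, led by YEF3, the fungal elongation factor 3 gene, at 12.6 and 13.3 FPKM after 1 h, against 1396 and 1449.6 FPKM at 0 h. Its paralog HEF3, which overlaps another gene, moved the other way, with 242 and 249.7 FPKM after 1 h, against 4.89 and 5.13 FPKM at 0 h. CAM1 rose by 0.52 ± 0.07 while its paralog TEF4, for the same subunit of elongation factor 1B, fell by 4.04. All 19 aminoacyl-tRNA synthetase genes tested fell, from GUS1 (by 0.92) to CRS1 (by 2.79), and 21 of 24 tRNA modification genes fell. The ribosome-bound chaperone genes SSB1 and SSB2 fell by 6.95 and 4.57, and their split is uncertain because of near-identical sequence.

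Mitochondrial ribosomal protein genes fell as a block. All 64 were called lower by at least 2-fold, within a narrow range from -1.36 ± 0.09 for MRPS12 to -3.74 ± 0.11 for MRPL15, which had 33.7 and 36.9 FPKM after 1 h, against 432 and 443 FPKM at 0 h. Of 39 genes for respiratory complexes and ATP synthase 33 fell, with a median of -1.11 over the list. CYC1, the main cytochrome c gene, fell to 961 and 912 FPKM after 1 h, against 11082 and 10358 FPKM at 0 h, and CYC7, the minor one, was not called (-0.22 ± 0.26). HAP4, the activating subunit of the HAP complex that drives respiratory genes, fell by 2.59, with 70.9 and 62.7 FPKM after 1 h, against 376 and 375 FPKM at 0 h. Of 17 genes of the tricarboxylic acid cycle 12 fell, with MDH1, IDH2 and SDH1 lower by 1.53, 1.46 and 1.41, and CIT3, a minor citrate synthase gene, was higher by 3.08 ± 0.08.

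Genes of lactate use stayed abundant, and genes of acetate use rose. CYB2, for L-lactate dehydrogenase, stood at 3089 and 3019 FPKM after 1 h, against 1394 and 1461 FPKM at 0 h, DLD1, for the D-lactate enzyme, fell by 0.41, and JEN1, the lactate permease gene, rose by 0.76 ± 0.09. ADY2, an acetate transporter gene, stood at 2092 and 2382 FPKM after 1 h, against 129 and 134 FPKM at 0 h. ACS1, for the acetyl-CoA synthetase of respiring cells, rose by 3.63 ± 0.09, whereas ACS2 fell by 0.53. The carnitine shuttle genes CAT2 (2.54 ± 0.07), YAT2 (2.19 ± 0.09) and YAT1 (1.60 ± 0.11) rose. In the glyoxylate cycle MDH2 (3.02 ± 0.12), CIT2 (1.91 ± 0.09), MLS1 (0.93 ± 0.09) and ICL1 (0.77 ± 0.10) rose, while PCK1, for the committed step of gluconeogenesis, was not called (-0.19 ± 0.11). The pyruvate carboxylase genes PYC1 and PYC2 fell by 2.19 and 0.94.

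Beta-oxidation and peroxisome genes rose, 23 of 28, with a median of 1.64. The enzyme genes FOX2, POT1 and IDP3 changed most, by 3.67 ± 0.09, 3.58 ± 0.08 and 3.58 ± 0.09, and PEX13, for an import channel protein, was the only member that fell (by 0.65).

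Many enzymes of carbon and nitrogen metabolism have a pair of genes, and in a set of pairs chosen after their values were seen the copies moved apart. ADH2, for the ethanol-consuming dehydrogenase, rose by 2.37 ± 0.11 and ADH1, for the ethanol-forming one, fell by 2.34. GLK1, which overlaps another gene, rose by 1.74 ± 0.07 and HXK2 fell by 4.30, to 44.7 and 39.5 FPKM after 1 h, against 784 and 761 FPKM at 0 h. NDE2 and NDE1 encode external NADH dehydrogenases of mitochondria: NDE2 reached 546 and 570.5 FPKM after 1 h, against 11.5 and 12.8 FPKM at 0 h, and NDE1 fell by 0.91, so that their levels, normalised for length, became close. COX5B, the low-oxygen form of a cytochrome oxidase subunit, rose by 2.49 ± 0.29, and COX5A fell by 0.67 and remained the more abundant at 2074 and 1995 FPKM after 1 h. HXT5, for a hexose transporter of slowly growing cells, reached 1568 and 1511 FPKM after 1 h, against 93.9 and 88.4 FPKM at 0 h. GDH3 rose by 2.60 ± 0.13 and GDH1 fell by 1.10, both for glutamate dehydrogenase. SNZ1, for a vitamin B6 synthase subunit, rose by 1.49 ± 0.11, and SNZ2 and SNZ3, whose reads cannot be fully separated, fell by 2.24 and 2.78.

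**Figure D5:**
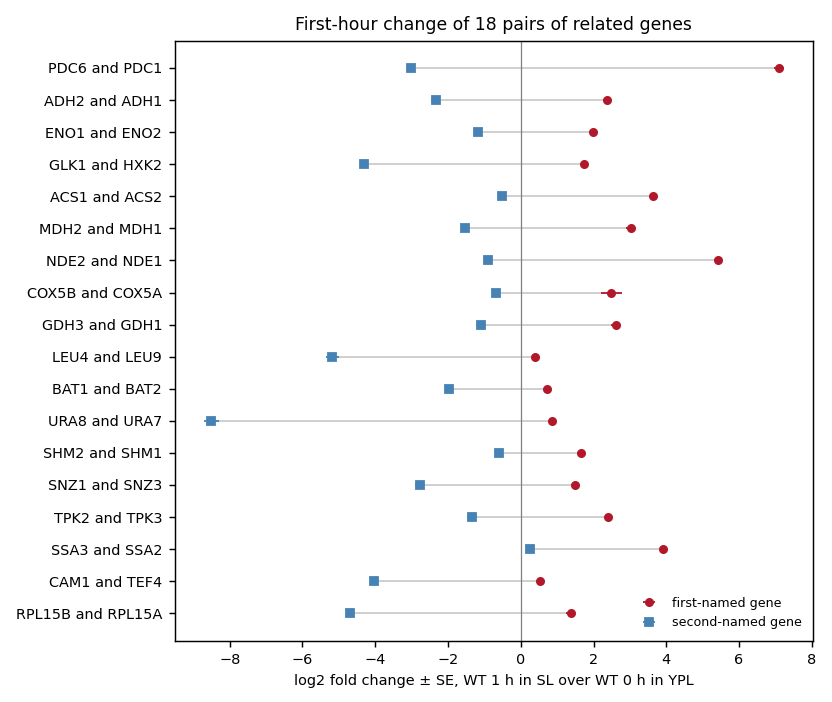
Log2 fold change ± SE (WT 1 h in SL over WT 0 h in YPL) of 18 pairs of genes for related products, chosen after their values were seen, with the first-named gene as a red circle and the second-named gene as a blue square. PDC6 lies at 7.10 and PDC1 at -3.03, and SSA3 and SSA2 both lie above 0.

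Outside the sulfur branch, amino acid synthesis did not rise as a block. Over the 50 genes of arginine, lysine, histidine, aromatic and branched-chain synthesis, 16 were called higher and 25 lower, with a median of -0.20. GCN4, the activator of these genes, whose control is mostly at translation, fell by 0.64 to 1964 and 1883 FPKM after 1 h, against 2866 and 2721 FPKM at 0 h. The letters TGACTC of its site stood in 5 of 9 arginine genes from 250 bases before to 50 after the start, against 8.21% of all genes. Within 500 bases before the start, a window chosen after values were seen, they stood in 9 of 9, against 12.9% of all genes. The arginine genes ranged from -1.38 ± 0.08 for ARG1 to 2.33 ± 0.10 for ARG5,6. Leucine genes moved apart: LEU1 rose by 2.63 ± 0.09 and LEU2 by 1.72 ± 0.09, while LEU9, which overlaps another gene, fell by 5.18. LYS5, whose product activates the lysine enzyme Lys2, rose by 2.83 ± 0.12, and LYS2, at 37.9 and 35.9 FPKM after 1 h, against 28.0 and 31.8 FPKM at 0 h, was not called. In the aromatic branch ARO4 fell by 3.66, with 55.0 and 39.8 FPKM after 1 h, against 553 and 566 FPKM at 0 h.

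Permeases for amino acids and peptides fell, 11 of 12, with a median of -3.40. PTR2, for the peptide transporter, stood at 2.11 and 2.08 FPKM after 1 h, against 189 and 187 FPKM at 0 h. TAT1 (by 5.30), BAP3 (by 4.61), AGP1 (by 4.36), GNP1 (by 4.28) and DIP5 (by 4.08) fell strongly, while CAN1 and LYP1, for arginine and lysine, fell by 0.53 and 0.78. ALP1 was the exception (1.01 ± 0.21) and had low levels, 12.3 and 16.2 FPKM after 1 h, against 7.42 and 5.70 FPKM at 0 h. GNP1 overlaps another gene. Unlike 11 of these 12 permeases, MUP1, MUP3, MMP1 and SAM3, for methionine, S-methylmethionine and S-adenosylmethionine, were higher. AGP3, whose permease has a broad range, was higher too, so the direction did not divide cleanly by sulfur content of the compound. Of 21 genes under nitrogen catabolite repression 10 were called higher and 7 lower, with a median of 0.22, beside 37.3% higher and 34.8% lower over all genes. CAR1, for arginase, and PUT1 and PUT2, for proline breakdown, had the largest decreases of that list, by 3.79, 3.06 and 2.33, and DUR3, for a urea permease, rose by 1.86.

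One-carbon genes that split glycine rose, with GCV1 at 2.53 ± 0.08, GCV2 at 2.81 ± 0.11 and GCV3 at 1.62 ± 0.10, and the serine hydroxymethyltransferase genes diverged, SHM2 higher by 1.65 ± 0.11 and SHM1 lower by 0.59. MIS1, for the mitochondrial one-carbon synthase, fell by 3.43. FDH1, for formate dehydrogenase, rose to 571 and 705 FPKM after 1 h, against 11.1 and 12.4 FPKM at 0 h, the largest change of the list.

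Purine synthesis had no common direction, with 9 of 21 genes called higher and 11 lower, beside 37.3% and 34.8% of all genes. Those of the IMP route with the largest increases were ADE17 (1.93 ± 0.15), ADE2 (1.19 ± 0.07) and ADE1 (1.04 ± 0.09), while ADE6 fell by 0.25. On the GMP branch GUA1 fell to 4.65 and 4.47 FPKM after 1 h, against 391 and 385 FPKM at 0 h, and IMD3 and IMD4 fell by 4.99 and 5.54, the pair being near-identical. For pyrimidines URA7, the CTP synthase gene, had 0.530 and 0.520 FPKM after 1 h, against 179.8 and 181 FPKM at 0 h, and overlaps another gene. Its paralog URA8 rose by 0.86 ± 0.08. The salvage gene FUR1 fell by 4.42.

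Lipid genes changed in part. The elongase genes ELO3 and ELO2 fell by 4.37 and 3.36 and the desaturase gene OLE1 by 2.36, while the acyl-CoA synthetase gene FAA1 rose by 1.84 ± 0.11. The methylation of phosphatidylethanolamine, which consumes S-adenosylmethionine, showed OPI3 higher by 1.00 ± 0.10 and CHO2 by 0.38 ± 0.09, and CHO1, for the phosphatidylserine synthase upstream, lower by 0.86. INO1, the inositol synthase gene, stood at 1197 and 1173 FPKM after 1 h, against 162 and 200.5 FPKM at 0 h, and OPI1, its repressor, rose by 1.48 ± 0.09. PHO84, the high-affinity phosphate permease gene, fell to 7.36 and 7.41 FPKM after 1 h, against 419 and 431 FPKM at 0 h. THI4, for thiazole synthesis, rose by 3.28 ± 0.15, and 12 of 16 thiamine genes were called higher.

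Of 13 genes of copper uptake and delivery 5 were called higher and 5 lower, near the shares over all genes, and the decreases were the larger ones. CTR1 stood at 7.95 and 7.75 FPKM after 1 h, against 791 and 1121 FPKM at 0 h, and CTR3 at 36.1 and 35.6 FPKM after 1 h, against 1241 and 1498 FPKM at 0 h. FRE7, for a metal reductase, had 2.18 and 1.37 FPKM after 1 h, against 205 and 336 FPKM at 0 h. In all 3 genes the 0 h libraries differed from each other, with the second library higher, and both lay far above the 1 h libraries. CRS5, a metallothionein gene, rose by 3.86 ± 0.13. CTR1 overlaps another gene. Iron uptake was mixed, with SIT1 and FET3 lower by 2.10 and 1.67 and FIT1 higher by 2.08 ± 0.16.

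Cell cycle genes moved in both directions. CLN2, the G1 cyclin gene, fell to 12.4 and 12.9 FPKM after 1 h, against 79.3 and 82.2 FPKM at 0 h. Among 23 genes of G1 and S phase 11 were lower and 6 higher, beside 34.8% lower and 37.3% higher over all genes. HO, the mating-type endonuclease gene, which is transcribed in late G1, fell by 6.85 to 0.820 and 0.770 FPKM after 1 h, against 88.8 and 84.2 FPKM at 0 h. Of 15 G2 and M phase genes 8 rose and 4 fell, to be read against the same shares, with CLB2 lower by 0.63. The histone genes HTA2, HTB2 and HHF2 fell by 2.57, 2.52 and 2.36, and their partners HTA1, HTB1 and HHF1 by 0.84, 0.93 and 0.63, with some sequence shared in each pair. All 5 genes for proteins with a JmjC domain rose, none of them by 2-fold, beside 37.3% of all genes called higher. The changes were 0.97 ± 0.13 for RPH1, 0.88 ± 0.12 for JHD1, 0.84 ± 0.13 for JHD2, 0.62 ± 0.16 for GIS1 and 0.31 ± 0.08 for ECM5. SET2, whose enzyme methylates H3K36 and which overlaps another gene, fell by 0.71, and DOT1, for the H3K79 methyltransferase, fell by 0.97. Cell wall genes divided evenly, 10 higher and 10 lower, with PIR3 higher by 3.60 ± 0.13 and UTR2 lower by 4.91.

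Intron-containing genes were more frequent among those that fell. They made up 9.78% of the protein-coding genes at least 2-fold lower and 2.74% of those at least 2-fold higher, against 5.0% of all searched, and 65.0% of the ribosomal protein genes have an intron. Without the ribosomal protein genes the shares were 3.15% of the 1142 genes at least 2-fold lower and 3.54% of 5625 genes searched, so the excess lay in the ribosomal protein genes. Of all genes tested 1118 overlap another gene, among them ATG34, GPH1, IFH1, IDH2, IMD4, SSB1, NOP4 and TEF4, and reads in the shared stretch may belong to either.

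The WT libraries of 3 h give the levels that followed, in a comparison that shares the 1 h libraries. Over all genes 27.4% were called higher at 3 h than at 1 h and 18.7% lower. The log2 changes and calls use scaling by the bulk of genes, whereas FPKM uses library totals. The scaling factors were 1.01 and 1.03 for WT 1 h and 0.84 and 0.82 for WT 3 h. Log2 changes from 1 h to 3 h therefore lie above those of the FPKM values, and small ones rest on this scaling. MET3 had 28.5 and 26.2 FPKM at 0 h, 3843 and 3733 FPKM at 1 h and 715 and 595 FPKM at 3 h, a change of -2.24 ± 0.09 after 1 h. GRE1 had 36.1 and 29.2 FPKM at 0 h, 21923 and 22729 FPKM at 1 h and 30205 and 29866 FPKM at 3 h. MET3 thus fell between 1 h and 3 h, while GRE1 rose further, by 0.72 ± 0.08. RPL3 had 3579 and 3505 FPKM at 0 h, 47.4 and 39.6 FPKM at 1 h and 342 and 341 FPKM at 3 h. NOP1 had 622 and 602 FPKM at 0 h, 5.73 and 4.58 FPKM at 1 h and 61.1 and 56.1 FPKM at 3 h. MRPL15, with 432 and 443 FPKM at 0 h, 33.7 and 36.9 FPKM at 1 h and 41.2 and 46.4 FPKM at 3 h, was called higher at 3 h than at 1 h by 0.61 ± 0.13. PDC1 had 1452 and 1429.6 FPKM at 0 h, 188 and 191 FPKM at 1 h and 2166 and 1988 FPKM at 3 h, and its 3 h libraries lay above its 0 h libraries.

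The same switch was made in 3 other genotypes, which share the WT libraries as their comparison. The difference between a genotype's change over the hour and that of WT was tested as an interaction and called where the adjusted p was under 0.05 and the difference was at least 1 on the log2 scale. In rph1Δ cells, without the JmjC demethylase that acts on H3K36, the change was higher than in WT for 0.646% of genes and lower for 1.03%. In set2Δ cells, which lack the H3K36 methyltransferase, it was higher for 3.37% and lower for 2.95%. In H3K36A cells, whose histone H3 cannot be methylated at that lysine, it was higher for 3.51% and lower for 3.18%. The MET3 change passed this rule in none of them, with differences of 0.30 ± 0.14 in rph1Δ, -0.21 ± 0.14 in set2Δ and -0.82 ± 0.14 in H3K36A cells. The RPL3 change differed by -0.41 ± 0.15, 0.34 ± 0.14 and -0.20 ± 0.15 in rph1Δ, set2Δ and H3K36A cells and was called in none. The increase of GRE1 was smaller in set2Δ and H3K36A cells than in WT, by -1.35 ± 0.15 and -2.40 ± 0.14, and that of CTT1 by -1.20 ± 0.21 and -1.49 ± 0.20.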

How the data were processed

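RNA of 24 yeast libraries was sequenced, of which the WT libraries of 1 h (SL) and 0 h (YPL), 2 each, were compared here. The authors deposited raw read counts per gene and FPKM values made from them. The FPKM values equalled the deposited counts scaled by gene length and library total for 100% of values, within 0.0051. The tools cutadapt 1.9.1, HISAT2 2.0.1 and HTSeq 0.6.1 and the build sacCer3 are named in the submitters' processing notes. No source used here says how reads of overlapping or duplicated genes were assigned, or whether strand was kept.

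Counts were tested with the edgeR 4.0.16 quasi-likelihood test after TMM scaling, in a fit of all 24 libraries (12 residual degrees of freedom, common biological variation 6.73%), with Benjamini-Hochberg adjustment and a threshold of 0.05. The test took in 6503 genes that reached 1 FPKM in 2 or more libraries, and 623 were left out. All 4 libraries held between 6659950 and 7627914 counts. On simulated data the test called 78 of 100 genes changed by 0.5 (log2), 97 of 100 changed by 1 and 11 of 6048 unchanged genes in the WT comparison. Of 6503 genes simulated, those without a simulated count were left out. The changed genes were far fewer than in the data, were balanced up and down and excluded those of lowest counts. The simulation therefore did not test the scaling under broad changes or the power for genes of few counts. Counts of replicates differed by more than sampling noise, with a chi-square statistic per degree of freedom of 3.04 for WT 1 h and 3.17 for WT 0 h. Alternatives were median-of-ratios scaling, library totals, DESeq2 1.42.0, limma 3.58.1 on log2(FPKM + 1), other filters on low values, WT libraries alone, overlapping genes left out, a replicate block and each library left out.

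The 77 gene lists (1403 members) and the members of the comparison were chosen with earlier results of these data known. Named genes were the 12 highest and 12 lowest changes at a mean of at least 10 FPKM, the 3 highest and 3 lowest of each list, every member of lists of 15 or fewer, the 3 highest and 3 lowest of each interaction, the 5 most abundant of each group and the edited genes. Paralogs of named genes and the 500-base window were added after values were seen. Genes with 3 or fewer counts in a group were given no fold change. Promoter windows and codons were read from the RefSeq R64 (sacCer3) genome of strain S288C, whereas the cells were CEN.PK. Analyses used R 4.3.3, Python 3.11.15 and matplotlib 3.10.9.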

Additional observations from a re-analysis of the deposited data

Results flagged for a closer look

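For some genes the change over the hour in SL differed between a mutant and WT by the edgeR interaction test, with an adjusted p under 0.05. The genes below are the most extreme by the naming rule, and the differences are log2 values, mutant minus WT, over 2 libraries per group.

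Of 114 ribosome assembly genes, all lower in WT, the change was higher than in WT, by at least 1 on the log2 scale, for 72 in set2Δ and 65 in H3K36A cells, against 3.37% and 3.51% of all genes. No assembly gene had a lower change by this rule in either mutant, and in rph1Δ cells none was called in either direction. These comparisons share the WT libraries. DRS1, NOP4 and ERB1 were the extremes by the naming rule. For DRS1 the difference was 6.55 in set2Δ and 6.26 in H3K36A cells. DRS1 had 134 and 133 FPKM after 1 h and 42.0 and 60.5 FPKM at 0 h in set2Δ cells and 99.1 and 100.5 FPKM after 1 h and 48.6 and 49.3 FPKM at 0 h in H3K36A cells, against 1.68 and 1.73 FPKM after 1 h and 71.2 and 68.6 FPKM at 0 h in WT. For NOP4 the difference was 3.85 in set2Δ and 4.84 in H3K36A cells, with 78.4 and 68.5 FPKM after 1 h and 67.2 and 63.2 FPKM at 0 h in set2Δ cells, against 6.12 and 3.65 FPKM after 1 h and 76.4 and 68.6 FPKM at 0 h in WT. For ERB1 it was 3.76 in set2Δ cells, where the levels were 20.9 and 22.4 FPKM after 1 h and 56.8 and 61.7 FPKM at 0 h, against 2.22 and 0.990 FPKM after 1 h and 68.8 and 70.4 FPKM at 0 h in WT. NOP4 overlaps another gene.

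Several genes that rose in WT had a lower change in these mutants. PDC6 differed by -4.14 in H3K36A cells, which had 30.8 and 35.5 FPKM after 1 h and 4.0 and 3.32 FPKM at 0 h, against 654 and 643 FPKM after 1 h and 4.20 and 4.62 FPKM at 0 h in WT. FDH1 differed by -3.36 in set2Δ cells, with 100.2 and 70.3 FPKM after 1 h and 15.7 and 12.4 FPKM at 0 h, against 571 and 705 FPKM after 1 h and 11.1 and 12.4 FPKM at 0 h in WT. HEF3, which overlaps another gene, differed by -3.13 in set2Δ cells, with 106 and 101 FPKM after 1 h and 17 and 15.2 FPKM at 0 h, against 242 and 249.7 FPKM after 1 h and 4.89 and 5.13 FPKM at 0 h in WT. The aryl-alcohol dehydrogenase genes AAD16 (-3.08 in set2Δ and -3.19 in H3K36A cells) and AAD6 (-3.22 in H3K36A cells) also differed, and AAD6 had 194 and 204 FPKM after 1 h and 238 and 244 FPKM at 0 h in H3K36A cells, against 199 and 193 FPKM after 1 h and 33.5 and 21.8 FPKM at 0 h in WT.

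In rph1Δ cells 42 genes had a higher and 67 a lower change than in WT. The extremes named here were genes of mating: STE2 differed by 3.34, MFA2 by 3.54, STE3 by -4.29 and FUS1 by -3.72. STE3, the receptor gene of alpha cells, had 24.9 and 20.1 FPKM after 1 h and 348 and 362 FPKM at 0 h in rph1Δ cells, against 4.82 and 5.84 FPKM after 1 h and 4.42 and 4.43 FPKM at 0 h in WT. The groups thus differed in mating-type genes at 0 h already, and for these genes a difference of mating type cannot be told apart from the deletion.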

How the results depend on the processing

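No named gene reversed its direction under a setting where that setting or the main fit called it. Changes of sign in genes called by neither were not counted. Of 609 named genes called, 559 were called in the same direction under every setting, and of 378 called and at least 2-fold, 376 were. The count of genes called higher was 2425 and lay between 2122 and 2638 under other scalings, filters and tests, and between 2210 and 2266 when each WT library was left out in turn. The count called lower was 2262, with ranges of 1993 to 2404 and 2104 to 2124. At least 2-fold higher genes numbered 1155 (974 to 1311, and 1114 to 1148 with a library left out) and lower ones 1320 (1145 to 1369, and 1292 to 1310). Scaling by median of ratios shifted the median log2 fold change by -0.05 and scaling by library totals by 0.10.

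Of 77 list counts, 72 stayed within 1.5 times under every setting. Without overlapping genes the counts called higher were 1 for histidine synthesis (otherwise 3), 3 for the vacuolar proton pump (otherwise 5) and 3 for copper genes (otherwise 5), and 2 genes of H3K36 readers and elongation factors were called lower (otherwise 5), since members were removed. Hexose transporters called higher numbered 6, and between 3 and 6 with a library left out, the 3 without the first WT 0 h library. With library totals 108 genes had a lower change in set2Δ than in WT cells, in place of 192, and the cause was not tested. The log2 fold change of ATG10 was -0.98, and -0.43 without the first 1 h library and -0.83 without the second 0 h library, with no call in either.

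Replicate numbers were not used as pairs in the main fit. The correlation of replicate deviations between WT 1 h and WT 0 h was 0.0729, and it ranged from -0.511 to 0.451 over 66 pairs of groups. Such a correlation cannot exclude batches shared by replicate number. With a replicate block 2419 genes were called higher and 2254 lower. The limits are 2 libraries a group, no labelled RNA standard, and calls of small changes that rest on scaling. Genes with few counts in both groups were below what these depths resolve.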

Other observations

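Genes of the early steps of meiosis, which yeast enters when nitrogen is short and carbon is respired, were called higher for 6 of 13 genes in WT cells after 1 h, a share not far from the 37.3% of all genes called higher. IME2, a kinase gene of meiotic entry, had 16.2 and 14.1 FPKM after 1 h, against 2.42 and 2.86 FPKM at 0 h. DMC1, for the meiotic recombinase, stood at 20.4 and 23.2 FPKM after 1 h, against 5.23 and 4.39 FPKM at 0 h, and IME1, the activator gene above them, was not called (-0.19 ± 0.34). These levels are low beside those of the stress genes. Of the a-specific genes STE2 (-2.03 ± 0.12) and STE6 (-1.55 ± 0.16), for the pheromone receptor and the a-factor exporter, fell, and ASG7 rose by 2.31 ± 0.27. In pheromone signalling FAR1, whose product stops the cycle in G1, fell by 1.97 and STE12, the activator of the route, by 1.54.

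Of 15 nuclear transport receptor genes 9 were called lower and 2 higher, beside 34.8% and 37.3% of all genes, and 5 fell by at least 2-fold. LOS1, the exporter gene of tRNA, stood at 5.36 and 7.64 FPKM after 1 h, against 26.9 and 27.1 FPKM at 0 h. KAP123 and PSE1, importers of ribosomal proteins, fell by 2.0 and 1.69, and MSN5, the exporter of several phosphorylated regulators, rose by 0.54 ± 0.08. Ergosterol genes were mixed, with 15 of 26 lower and 7 higher, to be read against the same shares, and 3 fell by at least 2-fold. The count called lower was 12 to 13 with a WT library left out and 11 to 16 under the other settings. ERG4, for the last step, fell by 2.04 and HMG2, a reductase gene of the early pathway, rose by 1.35 ± 0.09.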
